A study of Mus musculus with 6 samples.

Results

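The 10 melanocyte genes described here are Pmel, Dct, Tyrp1, Tyr, Mitf, Mlana, Kit, Sox10, Slc45a2 and Ednrb. They are a list of lineage and pigment genes chosen by name, with earlier results of these data known. All 10 had at least 1 probe, out of 21368 genes named on the array. Epidermis of mouse embryos was profiled on 6 Agilent 2-colour arrays, on each of which knockout RNA was set against that of a wild-type littermate. The knockouts had lost Sox4 (Sox4 cKO), Sox11 (Sox11 cKO) or both (dcKO) through floxed alleles of Sox4 and Sox11 (Sox4 fl/fl, Sox11 fl/fl), with 2 arrays of each genotype and the dyes exchanged between them. All embryos were labelled as age E16 and strain 129SvEx:C57BL/6. The Cre that deletes the floxed alleles was driven by Krt14, a keratin of basal keratinocytes, and came from an FVB/N line. The crosses also involved Sox12-/- mice, and whether the embryos on these arrays carried that allele was not given in the sources used here. The labels call the replicates biological and do not say whether 1 wild-type RNA served several arrays, so the 6 wild-type samples may not all be separate embryos.

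Melanocytes are not made by the epidermis. They descend from the neural crest, enter the embryonic epidermis as melanoblasts and move on into the hair follicles, where they pass pigment to keratinocytes. The transcription factors Sox10 and Mitf set up the lineage, the receptors Kit and Ednrb receive signals that keep melanoblasts alive and moving, and the remaining members build the pigment organelle and make melanin inside it. In a bulk RNA sample fewer melanoblasts and less of a transcript per melanoblast cannot be told apart. The Krt14 promoter acts in keratinocytes, so the comparison asks how the pigment cells of an epidermis without Sox4 or Sox11 compare with those of its wild-type littermates.

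The promoters of the 3 tyrosinase family genes, which encode the enzymes of the melanin pathway, are shown because they carry the short sequence through which Mitf is known to act on them. The RefSeq promoter table used here holds a window of 250 bases before to 50 bases after the start of transcription for 6 of the 10 members, in 9 windows (build GRCm38.p6). Capitals mark CATGTG or its reverse complement CACATG. The Tyr window is chr7:87493463-87493762 on the minus strand, the Tyrp1 window chr4:80833963-80834262 on the plus strand, and the Dct window chr14:118052197-118052496 on the minus strand, each written in the direction of transcription.
Tyr: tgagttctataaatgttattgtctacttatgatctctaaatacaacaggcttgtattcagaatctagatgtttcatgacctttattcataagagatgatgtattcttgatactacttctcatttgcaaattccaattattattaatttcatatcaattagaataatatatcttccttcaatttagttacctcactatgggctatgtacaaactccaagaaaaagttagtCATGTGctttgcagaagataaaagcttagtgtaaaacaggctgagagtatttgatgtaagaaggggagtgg
Tyrp1: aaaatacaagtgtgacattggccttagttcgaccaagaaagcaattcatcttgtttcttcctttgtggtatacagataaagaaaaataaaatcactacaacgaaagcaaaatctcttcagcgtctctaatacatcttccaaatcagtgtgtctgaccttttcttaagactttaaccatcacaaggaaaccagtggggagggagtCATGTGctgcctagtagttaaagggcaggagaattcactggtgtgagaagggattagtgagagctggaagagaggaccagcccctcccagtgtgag
Dct: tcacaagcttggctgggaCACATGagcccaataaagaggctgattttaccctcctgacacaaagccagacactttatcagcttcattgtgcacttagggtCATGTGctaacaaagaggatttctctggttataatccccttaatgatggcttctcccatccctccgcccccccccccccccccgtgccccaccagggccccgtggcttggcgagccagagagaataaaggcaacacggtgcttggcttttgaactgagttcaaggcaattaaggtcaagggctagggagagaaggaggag
The match began 21 bases before the start in Tyr, 46 bases before it in Tyrp1, and 232 and 150 bases before it in Dct. A run of 10 bases, gtCATGTGct, was common to the 3 windows and was found in 0.186% of all 32851 windows on either strand. CATGTG itself was in 14.2% of them. It was in none of the 6 windows of Mitf, Kit and Ednrb, where the search covered these 300 bases only. CACGTG, present in 7.15% of all windows, was in none of the 9. The letters ACAAAG and ACAATG, to which factors of the Sox family can bind, were present on either strand in 18.7% and 12.6% of all windows. ACAAAG was in the windows of Dct and Tyrp1 and ACAATG in that of Dct. The matches are letters only, and binding was not measured.

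Values are log2 differences of knockout over wild type on each array, and the fold change of a genotype is the mean of its 2 arrays. Levels are log2 normalized intensities, which can be compared between samples for 1 probe and not between genes. A channel is 1 sample in 1 dye, so a probe has 12 channels. A channel had 38.9% to 43.6% of its spots well above background. Of the 2 Sox4 probes, one (A_55_P2131899) was well above background in the wild-type channel and not in the knockout channel on all 4 arrays where Sox4 was deleted, and was lower in Sox4 cKO (adjusted p = 0.0289) and in dcKO (adjusted p = 0.00227). The other (A_55_P2121613) differed by −0.42 and −0.82 (adjusted p = 0.803 and 0.0778). Both Sox11 probes lay near background and could not check the Sox11 genotype. In Sox4 cKO and Sox11 cKO, replicate 1 was male and replicate 2 female by Xist and Ddx3y in both channels, and both dcKO arrays were male.

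Transcripts of the pigment cells were plain in the epidermis. Of the members, 8 were well above background in all 12 channels and Ednrb in 11. Tyrp1 was the exception, with 5 channels of 12. In the wild type Pmel, which forms the fibrils on which melanin is laid down, lay between 9.32 and 9.89 (median 9.67, n = 6). Dct, the dopachrome tautomerase of the pathway, lay between 10.81 and 11.35 (median 10.91). For the 9 genes other than Tyrp1, the SD over the 6 wild-type samples was between 0.08 and 0.40. The highest wild-type sample exceeded the lowest by 1.16-fold for Ednrb to 2.30-fold for Mlana. The Ednrb probe had 15.5 to 40.0 brightness units over background in the wild type, and its narrow range is that of a dim probe.

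**Figure D1:**
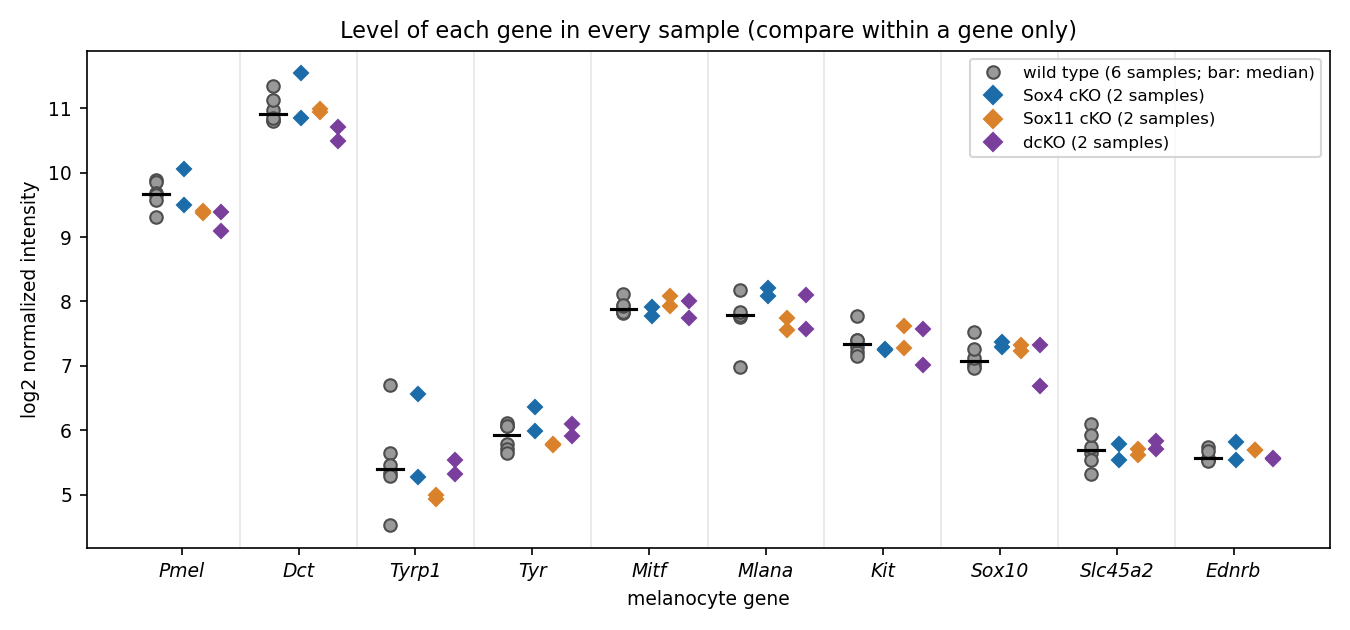
Level of the 10 genes (log2 normalized intensity, vertical axis) in each of the 6 wild-type samples (grey circles, bar at the median) and the 2 knockout samples of each genotype (diamonds). All 6 knockout samples lie within the wild-type range for Tyrp1 and Slc45a2, and for the other 8 genes at least 1 lies outside it (12 of 60 points in all). Both dcKO samples of Dct, at 10.71 and 10.50, lie below the lowest wild-type sample at 10.81.

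No melanocyte gene passed an adjusted p of 0.05 in any genotype. In Sox4 cKO 0 of 10 passed, where 0.00539% of all probes did. In Sox11 cKO 0 of 10 passed and 0% of all probes. In dcKO 0 of 10 passed, beside 0.83% of all probes. At an unadjusted p under 0.05 the number in the main analysis was also 0 of 10 in each of the 3 genotypes. Of all probes 6.17% (Sox4 cKO), 7.04% (Sox11 cKO) and 9.89% (dcKO) were under it. With other processing of the 6 arrays up to 3 members were under it in dcKO, Pmel, Kit and Slc45a2 without background subtraction. With the Feature Extraction log ratio 2 were under it in Sox11 cKO, Slc45a2 and Ednrb, and 1 in Sox4 cKO, Ednrb. The share of all probes was not counted in these settings. On the log2 scale the median fold change of the 10 genes was 0.02 (Sox4 cKO), 0.04 (Sox11 cKO) and −0.12 (dcKO), and the median over all probes was 0.00080, −0.0022 and 0.00035.

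For the 9 genes other than Tyrp1, each 95% interval in Sox4 cKO lay between −0.49 and 0.69, in Sox11 cKO between −0.51 and 0.79, and in dcKO between −0.77 and 0.54 on the log2 scale. In dcKO this corresponds to between 0.588 and 1.46 times the wild-type level. The bounds also cover the dim probes of Tyr, Slc45a2 and Ednrb. In the wild type these had 21.0 to 58.5, 18.0 to 42.0 and 15.5 to 40.0 brightness units over background. The values of Slc45a2 and Ednrb moved with the processing. With the Feature Extraction log ratio Slc45a2 in Sox11 cKO was 0.85, above the upper bound of 0.79, which is that of Mlana. The interval of Slc45a2 itself ended at 0.52. Ednrb also left its own intervals, at 0.57 in Sox4 cKO (−0.19 to 0.44) and −0.47 in Sox11 cKO (−0.26 to 0.36). The intervals come from 2 arrays per genotype and use the spread of all 6 arrays after the dye difference was removed, with moderation over all probes.

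**Figure D2:**
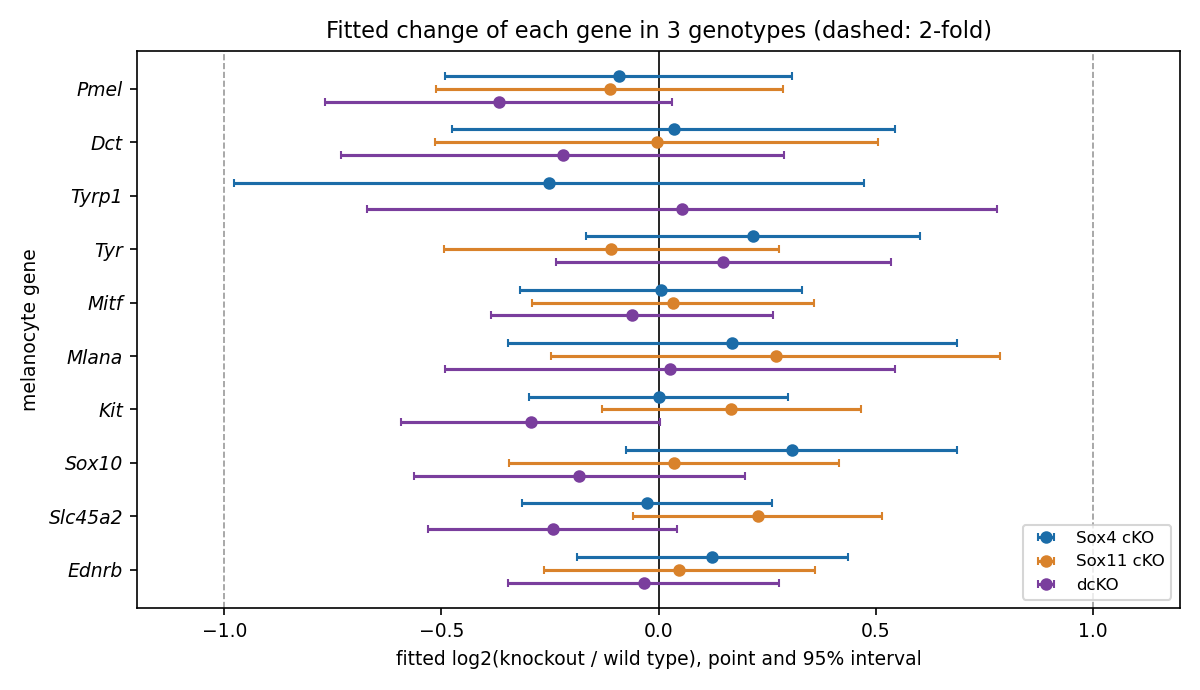
Fitted log2 difference of knockout over wild type (horizontal axis, points) with 95% intervals (bars) for the 10 genes in Sox4 cKO, Sox11 cKO and dcKO, 2 arrays each. Every interval includes 0 and none reaches the dashed lines at 2-fold. Tyrp1 has no bar in Sox11 cKO, where neither channel was well above background on either array.

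In dcKO Pmel and Dct were lower than the wild type on both arrays. Pmel differed by −0.26 on replicate 1 and by −0.48 on replicate 2. Its fold change was −0.37 ± 0.18 (SE, n = 2) with an interval of −0.77 to 0.03, and it did not pass (adjusted p = 0.546). Dct differed by −0.10 and −0.34, a fold change of −0.22 ± 0.22 (SE, n = 2, adjusted p = 0.816). A further Dct probe (A_55_P2003053) gave −0.14 and −0.33, so the values of both probes were alike.

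The same pair of genes moved in opposite directions on the Sox4 cKO arrays. Pmel was at −0.39 on replicate 1 and 0.21 on replicate 2, and Dct at −0.50 and 0.57. The wild-type samples of these arrays had the highest Pmel levels of all 6, 9.89 and 9.85. The Sox4 cKO sample of replicate 2 had the highest Pmel level of all samples, 10.06, and the highest Dct level, 11.54. On the Sox11 cKO arrays Pmel was at 0.05 and −0.28 and Dct at 0.14 and −0.14. Pmel and Dct had the same sign on all 6 arrays.

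Tyrp1, a melanosomal enzyme related to tyrosinase, gave the widest differences and the least reliable ones. Its probe was well above background in 3 of 6 wild-type samples, both of the Sox4 cKO arrays and that of dcKO replicate 1, and in 2 of 6 knockout samples, Sox4 cKO replicate 2 and dcKO replicate 2. On the Sox4 cKO arrays it was at −1.43 and 0.93, and on the dcKO arrays at 0.08 and 0.03. The fold change was −0.25 in Sox4 cKO (interval −0.98 to 0.47, adjusted p = 0.942) and 0.05 in dcKO (interval −0.67 to 0.78, adjusted p = 0.979). The wild-type level of the Sox4 cKO replicate 1 array, 6.70, was the highest of the 6, and the median was 5.39. Averaged over genotypes, the Cy5 channel was lower than the Cy3 channel by −0.53 ± 0.18 (SE, log2 of Cy5 over Cy3, adjusted p = 0.194). On neither Sox11 cKO array was Tyrp1 well above background in any channel, and no fold is given (adjusted p = 0.99).

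Tyr, which encodes tyrosinase, the enzyme that starts melanin synthesis, was higher than the wild type on both Sox4 cKO arrays, by 0.20 and 0.24, a fold change of 0.22 ± 0.17 (SE, n = 2, adjusted p = 0.883). On the Sox11 cKO arrays it was at 0.06 and −0.28, and on the dcKO arrays at −0.15 and 0.45. Its wild-type levels ran from 5.64 to 6.12. FVB/N, the strain of the Cre line, is albino through a change in the Tyr protein, and the Tyr genotype of these embryos was not given in the sources used here. A further Tyr probe (A_51_P102311) was not well above background in any channel.

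Slc45a2, a transporter of the melanosome membrane, was the steadiest of the pigment genes in dcKO, at −0.26 and −0.22. The fold change was −0.24 ± 0.13 (SE, n = 2, interval −0.53 to 0.04, adjusted p = 0.582). It was higher than the wild type on both Sox11 cKO arrays, by 0.16 and 0.29 (fold change 0.23, adjusted p = 0.756). That value ran from 0.13 with an offset of 50 to 0.85 with the Feature Extraction log ratio (adjusted p = 0.773 and 0.689). It was at −0.10 and 0.05 on the Sox4 cKO arrays. The probe was dim, with 18.0 to 42.0 brightness units over background in the wild type. Mlana, a melanosomal membrane protein that acts with Pmel, was at 0.76 and −0.22 in Sox11 cKO, at 0.31 and −0.26 in dcKO and at −0.10 and 0.44 in Sox4 cKO. The 0.76 came from the array whose wild-type sample, at 6.98, was the lowest of the 6, which otherwise lay between 7.77 and 8.18.

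Mitf, the transcription factor that directs pigment cell development, was near the wild type in every genotype. It was at −0.05 and 0.06 in Sox4 cKO, at 0.26 and −0.19 in Sox11 cKO and at 0.07 and −0.20 in dcKO, and its 3 intervals lay between −0.39 and 0.36. Its second probe (A_55_P2152437) had the same sign on 6 of 6 arrays and a wider range, from −0.63 to 0.48. Sox10, which acts upstream of Mitf and is itself a relative of Sox4 and Sox11, was higher than the wild type on both Sox4 cKO arrays, at 0.24 and 0.37. Its fold change there was 0.31 ± 0.17 (SE, n = 2, interval −0.07 to 0.69, adjusted p = 0.829). In Sox11 cKO it was at 0.26 and −0.19, and in dcKO at 0.21 and −0.57.

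The receptor Kit, which binds the Kit ligand made by keratinocytes and fibroblasts, was lower than the wild type on both dcKO arrays. It was at −0.20 and −0.39, a fold change of −0.29 ± 0.13 (SE, n = 2, interval −0.59 to 0.0038), with an adjusted p of 0.511. It differed by −0.04 and 0.04 in Sox4 cKO and by 0.12 and 0.21 in Sox11 cKO. Mast cells carry Kit as well. Of 8 mast cell genes, 4 were well above background in at least 6 channels, while Ms4a2 and Fcer1a, subunits of the IgE receptor, were in none. The median of the 8 was −0.40 and −0.64 on the dcKO arrays, and 6 of the 8 were lower on both, against 25% of all probes. The median fold change of the 4 was −0.97 (Sox4 cKO), 0.59 (Sox11 cKO) and −1.34 (dcKO). The summed level of the list was 8.49 to 10.70 in the wild type, 8.56 to 9.15 in Sox4 cKO, 8.81 to 8.89 in Sox11 cKO and 8.60 to 9.20 in dcKO, and its part in the Kit values was not tested. Ednrb, the receptor for endothelins, lay between −0.10 and 0.25 over the 6 arrays by the probe used. Its dimmer second probe (A_55_P2089710), well above background in 6 channels, ran from −0.31 to 0.47 and had the same sign on 4 of 6 arrays. With the Feature Extraction log ratio the fold change of Ednrb was 0.57 (Sox4 cKO), −0.47 (Sox11 cKO) and −0.32 (dcKO), with adjusted p of 0.686, 0.77 and 0.603.

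**Figure D3:**
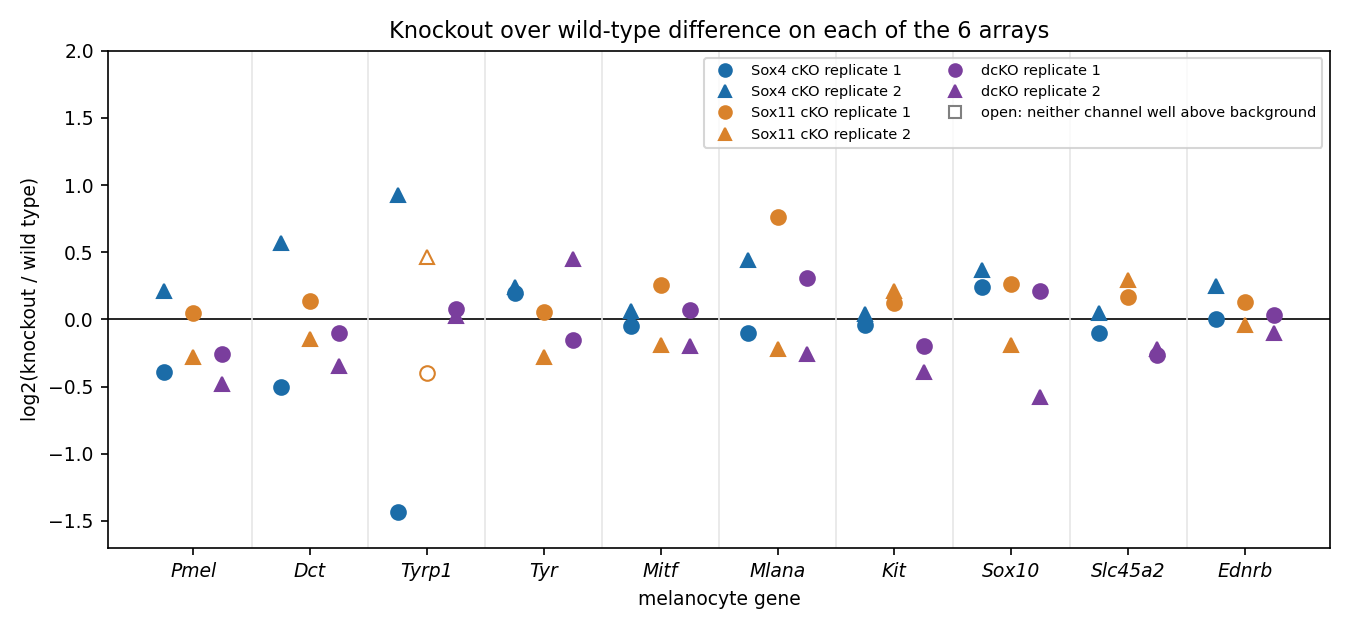
Log2 difference of knockout over wild type (vertical axis) of the 10 genes on each of the 6 arrays, with circles for replicate 1, triangles for replicate 2 and open symbols where neither channel was well above background. The 2 replicates of a genotype fall on opposite sides of 0 for 7 genes (Sox4 cKO), 8 genes (Sox11 cKO) and 5 genes (dcKO).

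In dcKO 4 of 10 genes, Pmel, Dct, Kit and Slc45a2, were lower on both arrays, against 25% of all probes, and Tyrp1 alone was higher on both, against 24.8%. The Tyrp1 differences were 0.08 and 0.03, and on each of these arrays 1 of its channels was not well above background. In Sox4 cKO 0 genes were lower on both arrays (22.9% of all probes) and 3, Tyr, Sox10 and Ednrb, were higher on both (23%), Ednrb by no more than 0.00043 on replicate 1. In Sox11 cKO 0 were lower on both (22.7%), and 2, Kit and Slc45a2, were higher on both (22.7%). The split between higher and lower genes differed from array to array. On Sox4 cKO replicate 2 all 10 were higher than the wild type and on replicate 1 only 3 were, whereas on Sox11 cKO replicate 1 there were 9 and on replicate 2 there were 3. On the dcKO arrays 5 and 2 were higher.

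The array-to-array swings were set beside markers of other cells that a peeled epidermis can hold. On the array Sox4 cKO replicate 1 the median of 8 dermal fibroblast genes was −3.00, and on replicate 2 it was 0.87. On the Sox11 cKO arrays it was 1.11 and −0.67, and on the dcKO arrays −1.71 and −1.53. The members' median was −0.07, 0.24, 0.13, −0.17, −0.03 and −0.24 in the same order, and so had the sign of the fibroblast median on 6 of 6 arrays. Pmel and Dct each had that sign on 6 arrays, Mitf, Mlana, Kit and Slc45a2 on 5, Tyr, Sox10 and Ednrb on 4, and Tyrp1 on 2. Of the 8 fibroblast genes, 7 were well above background in at least 6 channels, and all 8 in at least some. Col3a1, a collagen of the dermis, was at −4.37 and 1.27 in Sox4 cKO, at 1.40 and −0.70 in Sox11 cKO and at −2.25 and −1.99 in dcKO, whereas Dcn lay between −0.21 and 0.46 throughout. In dcKO 6 of the 8 fibroblast genes were lower on both arrays, against 25% of all probes. The other 2, Dcn and Postn, were higher on both, against 24.8%. The summed level of the list was 12.76 to 14.48 in the wild type, 13.49 to 13.61 in Sox4 cKO, 12.87 to 12.94 in Sox11 cKO and 13.06 to 13.30 in dcKO. Of 8 muscle genes 2 were well above background in at least 6 channels and Myog, a factor of muscle formation, in none. The median of all 8 muscle genes was −2.06 and 0.08, then 0.32 and −0.03, then −0.20 and −0.93. It had the sign of the fibroblast median on every array, as the members' median did. So did the median of the 9 Schwann and glia genes described below, of which 4 were well above background in no channel. The summed level of the muscle genes was 8.04 to 11.10 in the wild type, 8.30 to 8.70 in Sox4 cKO, 8.06 to 8.59 in Sox11 cKO and 8.34 to 8.42 in dcKO. The median of 7 basal keratinocyte genes stayed between −0.16 and 0.28 over the 6 arrays. That of the 8 mast cell genes had the fibroblast sign on all arrays but Sox11 cKO replicate 2, where it was 0.26. For the 32 further pigment cell genes described below it was 0.03, −0.02, 0.05, 0.01, −0.02 and 0.05 in array order. On most arrays that was opposite to the fibroblast sign. The part of dermal cells in the melanocyte values was not tested.

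**Figure D4:**
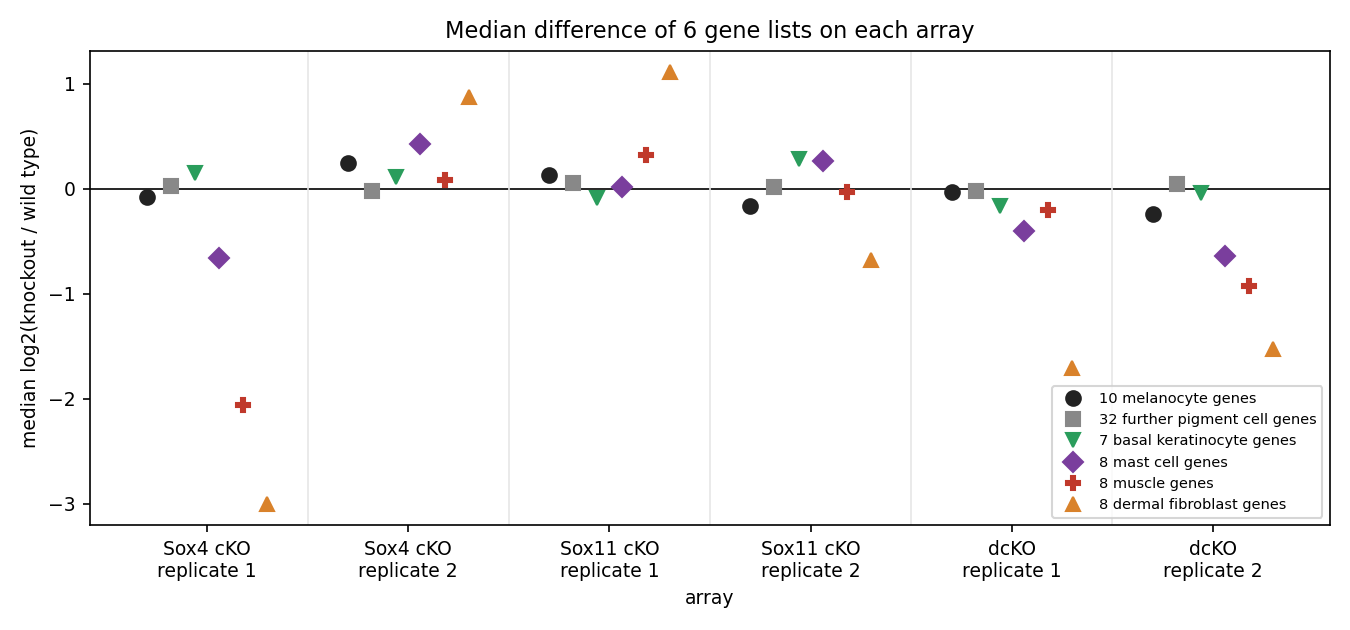
Median log2 difference of knockout over wild type (vertical axis) of 6 gene lists on each of the 6 arrays. The 10 melanocyte genes lie between −0.24 and 0.24. They share the sign of the dermal fibroblast genes on every array, as the muscle genes do and the 32 further pigment cell genes do not. The Schwann and glia genes, which are not plotted, share it as well. The fibroblast genes range from −3.00 to 1.11.

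Neural crest cells of another kind, Schwann cells and their precursors, also express Sox10 and Ednrb. Of 9 Schwann and glia genes, 3 were well above background in at least 6 channels, while S100b, Cdh19 and Foxd3 were in none. The median fold change of the 9 was −0.10 (Sox4 cKO), −0.04 (Sox11 cKO) and 0.01 (dcKO). Their median on the single arrays was −0.09, 0.0047, 0.08, −0.06, −0.19 and −0.04 in array order, with the sign of the fibroblast median on all 6. The median fold change of the 3 was −0.16, −0.08 and −0.11 in the same order of genotypes. The summed level of the 9 was 10.37 to 10.76 in the wild type, 10.49 to 10.77 in Sox4 cKO, 10.46 to 10.48 in Sox11 cKO and 10.33 to 10.59 in dcKO. Of 8 blood vessel genes 3 were well above background in at least 6 channels and 4 in none. The median fold change of the 8 was −0.11 (Sox4 cKO), 0.03 (Sox11 cKO) and −0.12 (dcKO). That of the 3 was −0.01, −0.09 and 0.17 in the same order.

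The genotypes were also compared with each other. Between dcKO and Sox4 cKO 0 of 10 genes passed an adjusted p of 0.05, beside 0.145% of all probes. Between dcKO and Sox11 cKO 0 of 10 passed, beside 0.16% of all probes, and between Sox4 cKO and Sox11 cKO 0 of 10, beside 0.0018%. At an unadjusted p under 0.05 the numbers were 0, 2 and 0, beside 6.11%, 7.21% and 5.27% of all probes in the same order. The pair was Kit and Slc45a2, which were lower in dcKO than in Sox11 cKO by −0.46 (interval −0.88 to −0.04, adjusted p = 0.669) and −0.47 (interval −0.88 to −0.07, adjusted p = 0.655). The Slc45a2 difference ran from −0.29 with an offset of 50 to −1.25 with the Feature Extraction log ratio (adjusted p = 0.524 and 0.505). Kit and Slc45a2 had the same sign on 6 of 6 arrays, as did Mitf and Mlana, and Sox10 and Ednrb. Only 4 of the 45 pairs of genes did so, Pmel and Dct being the other. For the differences between genotypes, the intervals were wider, and for the 10 genes reached from −1.31 to 1.33.

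A further 32 genes of pigment cells were examined, most of them needed to build, fill and move melanosomes. Of these 26 were well above background in at least 6 channels and 3 in none. In Sox4 cKO and Sox11 cKO 0 of 32 passed an adjusted p of 0.05, beside 0.00539% and 0% of all probes. In dcKO 1 of 32 passed, beside 0.83% of all probes, and was higher. That gene was Mreg, which encodes melanoregulin, a protein of melanosome movement and transfer. Its level was 9.52 and 9.09 in dcKO and 8.66 and 8.32 in the wild-type samples of the same arrays. The differences were 0.86 and 0.76, a fold change of 0.81 ± 0.13 (SE, n = 2, interval 0.51 to 1.11, adjusted p = 0.0325). It differed by 0.03 and 0.09 in Sox4 cKO and by 0.13 and 0.39 in Sox11 cKO (adjusted p = 0.971 and 0.734). The difference between dcKO and Sox4 cKO, 0.75, did not pass (adjusted p = 0.463), nor did that between dcKO and Sox11 cKO, 0.55 (adjusted p = 0.624). Its sign matched that of the dermal fibroblast median on 2 of 6 arrays. The call was lost without the replicate block (adjusted p = 0.0615), with the Feature Extraction log ratio (adjusted p = 0.291), and without dcKO replicate 1 (fold change 0.68, adjusted p = 0.524) or without dcKO replicate 2 (0.94, adjusted p = 0.167).

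None of the other 31 passed. The next largest values in dcKO were those of Zeb2, a transcription factor of the melanocyte lineage and of mesenchyme, at −0.87 and −0.48 (adjusted p = 0.444), of Rab17, a trafficking GTPase, at −0.38 and −0.74 (adjusted p = 0.414), and of Myo5a, the motor that carries melanosomes, at 0.76 and 0.24 (adjusted p = 0.22). Zeb2 had the sign of the dermal fibroblast median on 6 of 6 arrays. The median of the 32 was −0.02 (Sox4 cKO), 0.01 (Sox11 cKO) and −0.03 (dcKO). In dcKO 11 of the 32 were higher and 11 lower on both arrays, against 24.8% and 25% of all probes.

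Genes of the signals that reach melanocytes were examined as well, and 18 of the 19 on the list had a named probe, Asip being without one. In each genotype 0 of 18 passed an adjusted p of 0.05, beside 0.00539% (Sox4 cKO), 0% (Sox11 cKO) and 0.83% (dcKO) of all probes. Of the 18, 10 were well above background in at least 6 channels. Kitl, the ligand of Kit, was at −0.17 and −0.06 in dcKO (fold change −0.11 ± 0.15 SE, n = 2, adjusted p = 0.829). Edn3, the ligand of Ednrb in this lineage, was not well above background in any channel. Bmp4, a growth factor of skin and follicle signalling, came closest, at −0.66 and −0.65 in dcKO (fold change −0.65 ± 0.13 SE, n = 2, adjusted p = 0.0668). Dkk4, a Wnt inhibitor of the hair placode, was at −0.17 and −0.90 (adjusted p = 0.187). Ece1, which activates endothelins, was at 0.27 and −0.80 (adjusted p = 0.65).

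The genes most like the pigment genes across the arrays were sought by the correlation of their levels with the mean of Pmel, Dct, Tyrp1 and Mlana, over 12 channels centred within each dye, among 11768 genes. The values of 2 channels of an array share its processing, and the correlation is a description. Outside the lists the highest were Slfn2 at 0.90, Med29 at 0.89, Vmn1r217 at 0.89, Apcdd1 at 0.86, Bach2 at 0.86, Prrx2 and Cript at 0.85, Crip1 and Flot2 at 0.85 and Tm4sf1 at 0.84. Pmel, Mlana and Dct, which are part of that mean, ranked 4, 11 and 21. The other members were at 0.38 (Tyr), 0.30 (Sox10), 0.21 (Ednrb), 0.18 (Slc45a2), −0.0014 (Kit) and −0.05 (Mitf). Tyrp1 was well above background in 5 of the 12 channels, had the widest spread (wild-type SD 0.70) and correlated with the mean at 0.91. With Tyrp1 left out of the mean, an alternative chosen after seeing the data, 4 of the 10 genes outside the lists were again among the 10 highest, Vmn1r217 at 0.86, Flot2 at 0.86, Apcdd1 at 0.85 and Crip1 at 0.82. Slfn2 was then at 0.74 (rank 40) and Rpl21 was the highest at 0.88. Sox10 was then at 0.51 and Ednrb at 0.39, so the order of likeness rests in part on Tyrp1.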

How the data were processed

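Each of the 6 arrays held knockout and wild-type E16 epidermis RNA in opposite dyes. The labels gave the group, the replicate number and the dye of each sample. The authors extracted the images with Agilent Feature Extraction 11.0.1.1 and, per the labels, used limma 3.5. The deposited scanner files hold the median intensity of each spot and of its background, flags for spots well above background, and a log10 ratio of red over green. The authors' series table holds a log2 ratio of knockout over wild type, which followed the values computed here with a slope of 1.00. The study's methods also name ComBat, which was not applied here.

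Intensities were corrected with normexp (offset 16), fitted on median signals, and normalized by loess within each array in limma 3.58.1 (R 4.3.3). Control and outlier spots were left out and spots of a probe averaged, which gave 55681 probes. Levels are channel values after Aquantile normalization. All 6 arrays entered 1 linear model, in which each genotype and the dye had a coefficient, and variances were moderated by empirical Bayes (prior degrees of freedom 6.63, residual 2). P-values are two-sided and were adjusted by the Benjamini-Hochberg method over all probes. Passing was set at an adjusted p of 0.05. The procedure was tested on simulated data. The dye coefficient was also the replicate block, since replicate 1 always had the knockout in Cy5. Deviations of arrays with the same number from their genotype mean correlated across probes at 0.26 to 0.33, and the pairing comes from the replicate numbers of the labels. The number of arrays limited the precision, and p-values measure the spread between these samples.

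Probes were named through RefSeq accessions (GRCm38.p6), which covered 28331 probes. Of several probes of a gene, the one with the highest mean level stood for it (4 of the 10 members have 2 probes). Beyond the members, genes that passed and up to 4 per list with the largest change in dcKO among those well above background in at least 6 of 12 channels were named, and Kitl, Edn3, Col3a1 and the markers at 0 channels were named in addition. Some genes of these lists are not reported here by name. Promoter windows were matched by symbol. The members, gene lists and tests were chosen with earlier results of these data known. The alternatives tried were an offset of 50, no background subtraction, the Feature Extraction log ratio, the series table, no replicate block, own arrays only, a filter on dim probes, the mean of all probes of a gene, and each array left out in turn.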

Additional observations from a re-analysis of the deposited data

Results flagged for a closer look

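The wild-type level of Mlana had 1 sample far from the others. Over the 6 wild-type samples the gap between the lowest (6.98, on the array Sox11 cKO replicate 1) and the next (7.77) was 0.653 of the whole range. This was the array on which Mlana had its largest difference of knockout over wild type, 0.76. The other 9 genes were tested in the same way without such a gap, and chance alone gives such a gap in about 5% of groups.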

How the results depend on the processing

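The number of melanocyte genes passing an adjusted p of 0.05 was 0 in each of the 6 comparisons under all 81 recomputations, among them the fit without the replicate block (0 in each comparison) and each of the 6 arrays left out in turn (0 to 0). The lowest adjusted p of a member against the wild type in any of them was 0.205, for Kit in dcKO at −0.24 with an offset of 50. The Feature Extraction log ratio also gave 0 probes of any gene in dcKO, where 462 passed in the main analysis, 270 without the replicate block and 1376 at an offset of 50. The call of Mreg in dcKO was lost without the replicate block (0.81, adjusted p = 0.0615) and with the Feature Extraction log ratio (0.90), and with an array left out its fold change ran from 0.68 to 0.94. The own-arrays fit was run for the differences between genotypes. For a single genotype it leaves no residual degrees of freedom beside the dye coefficient and was not run. Tyrp1 did not pass the filter on dim probes.

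Fold changes of members near 0 changed sign in 15 of 201 recomputations other than a left-out array, none of them over 0.05 in size in the main analysis. With an offset of 50 Kit in Sox4 cKO was 0.00084 and Dct in Sox11 cKO 0.00015. Without background subtraction Kit in Sox4 cKO was 0.0015, Slc45a2 in Sox4 cKO 0.0493, Dct in Sox11 cKO 0.0031, Sox10 in Sox11 cKO −0.00635 and Ednrb in Sox11 cKO −0.0375. With the Feature Extraction log ratio Kit and Slc45a2 in Sox4 cKO were 0.0070 and 0.26, Sox10 and Ednrb in Sox11 cKO −0.0258 and −0.47 and Mlana in dcKO −0.0334. With the series table Kit in Sox4 cKO was 0.00079. With the mean of all probes Dct in Sox4 cKO was −0.0094 and Ednrb in dcKO 0.0319. The cause was not tested.

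Leaving out 1 array changed the sign in 22 of 174 recomputations, each time when the array left out was one of that genotype. The fold change is then the value of the remaining array, corrected by a dye coefficient that comes from the arrays of the other genotypes. For Tyrp1 in dcKO the 2 arrays themselves were alike, at 0.08 and 0.03, and its range below comes from that correction. In Sox4 cKO the fold change ran from −0.53 to 0.35 for Pmel, −0.63 to 0.70 for Dct, −1.23 to 0.73 for Tyrp1, −0.23 to 0.24 for Mitf, −0.49 to 0.83 for Mlana, −0.0645 to 0.0641 for Kit, −0.0650 to 0.68 for Sox10, −0.0595 to 0.00611 for Slc45a2 and −0.0769 to 0.32 for Ednrb. In Sox11 cKO it ran from −0.37 to 0.15 for Pmel, −0.35 to 0.34 for Dct, −0.44 to 0.22 for Tyr, −0.15 to 0.22 for Mitf, −0.21 to 0.75 for Mlana, −0.0264 to 0.0973 for Sox10 and −0.0648 to 0.16 for Ednrb. In dcKO it ran from −0.54 to 0.10 for Dct, −0.78 to 0.89 for Tyrp1 and −0.23 to 0.52 for Tyr. It ran from −0.15 to 0.20 for Mlana, −0.49 to 0.13 for Sox10 and −0.12 to 0.0535 for Ednrb. Pmel, Kit, Slc45a2 and Mitf stayed below 0 in dcKO, Mitf between −0.11 and −0.012.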
